A study of Mus musculus with 18 samples.

Results

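The control livers of 2 mouse lines were compared with each other, 3 libraries labelled WT in the BH line (BH-WT) against 3 labelled WT in the H line (H-WT), out of 18 libraries in the whole series. The 6 libraries were taken by their column names in the table of raw counts, and all genes entered the comparison. The question it answers is how far the 2 sets of controls differ before any deletion is considered. H-WT mice are labelled B6.129X1(FVB) with Hnf4atm1.1Gonz (from 129X1/SvJ) and Albtm1(cre/ERT2)Mtz (129S2/SvPas crossed with C57BL/6). BH-WT mice are labelled with these 2 alleles and, in addition, B6.129S4(Cg) with Arntltm1Weit (129S4/SvJae). Hnf4atm1.1Gonz and Arntltm1Weit are alleles made for conditional deletion, and the Alb allele drives Cre recombinase, switched on by tamoxifen, from the albumin locus of hepatocytes. All 6 mice were 10 weeks old, had received intraperitoneal tamoxifen (10 mg/mL) on 5 days at 8 weeks, and gave liver at ZT8, 8 hours after lights on. Libraries labelled KO carry the same strain labels and treatment as the WT libraries of their line, so the sources used here do not give what made a mouse WT. The KO groups of both lines (H-KO and BH-KO, 10 weeks, 3 libraries each) are used below to see where a difference recurs. So is the older WT group of the BH line (BH-HF-WT, 45 weeks, the same tamoxifen, 3 libraries). It had a high-fat diet for 35 weeks from 10 weeks of age. These groups and BH-HF-KO, the KO group of that age, diet and tamoxifen, also entered the fit. Filtering and the estimate of spread behind every p-value thus used all 18 libraries.

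Inbred mouse strains differ at many sites of the genome, and an allele made in 129 stem cells and crossed to C57BL/6 keeps a flanking stretch of 129 chromosome for many generations. Genes in such a stretch can differ in expression between lines whatever the targeted gene does. Liver also differs between the sexes, because the pattern of growth hormone release sets which cytochrome P450, sulfotransferase and urinary protein genes hepatocytes transcribe. Controls of 2 lines can therefore differ by origin, by sex and by the state of the single animals.

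Total counts of the 6 libraries were 6846471 to 8618642, and 3 counts, the limit that a count of 0 allows, correspond to 0.367 to 0.479 CPM (counts scaled to a common library size by totals and TMM factors). Albumin took 6.69% to 8.48% of the counts and mitochondrial genes 7.20% to 8.54%. One library stood apart in sex. Xist, which coats the inactive X chromosome of females, reached 1082 CPM in H-WT replicate 3, while the other 5 libraries had at most 0.42 CPM. Y-linked Ddx3y gave 5.73 CPM there, against 115 to 136 CPM elsewhere. Ddx3y and the Y-linked genes Eif2s3y (3.91 CPM) and Kdm5d (0.979 CPM) were low there but above that library's limit of 0.419 CPM. The source of these counts was not tested. H-WT replicate 3 thus had the pattern of a female and the other 5 that of males, while the labels give no sex. The first principal component of the 6 libraries (38.2% of the variance) had BH-WT replicate 2 at one end and H-WT replicate 3 at the other, and every BH-WT library above every H-WT library, although BH-WT replicate 1 (-1.40) and H-WT replicate 1 (-5.44) lay close together. Results are given with and without H-WT replicate 3 where it moves them.

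Few genes separated the 2 sets of controls. Of 13958 genes tested, 23 passed at an adjusted p under 0.05 (0.165%), with 8 higher in BH-WT (0.0573%) and 15 lower (0.107%), with p-values from the quasi-likelihood test of edgeR, adjusted by the Benjamini-Hochberg method, here and below. At an unadjusted p under 0.05 there were 1301 genes, 682 higher and 619 lower. The median log2 fold change over all genes was 0.00118. Libraries of the 2 groups did not overlap for 14.7% of tested genes and for all 23 that passed. Of the 23, 19 had a fitted change of at least 2-fold and 14 of at least 8-fold. Protein-coding genes made up 14 of the 23 (60.9%, against 88.8% of tested genes), 6 were pseudogenes (26.1%, against 2.49%) and 3 were non-coding RNAs. Without H-WT replicate 3, 17 genes passed (0.118%), 13 of them among the 23. The 10 that were lost were Serpina1e, Ggct, Coq5, Zfp125, CT010462.2, AC159477.1, Gm1966, Gm6768, Gm8730 and Gm10704, with adjusted p-values of 0.0563 to 0.117 without that library.

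**Figure D1:**
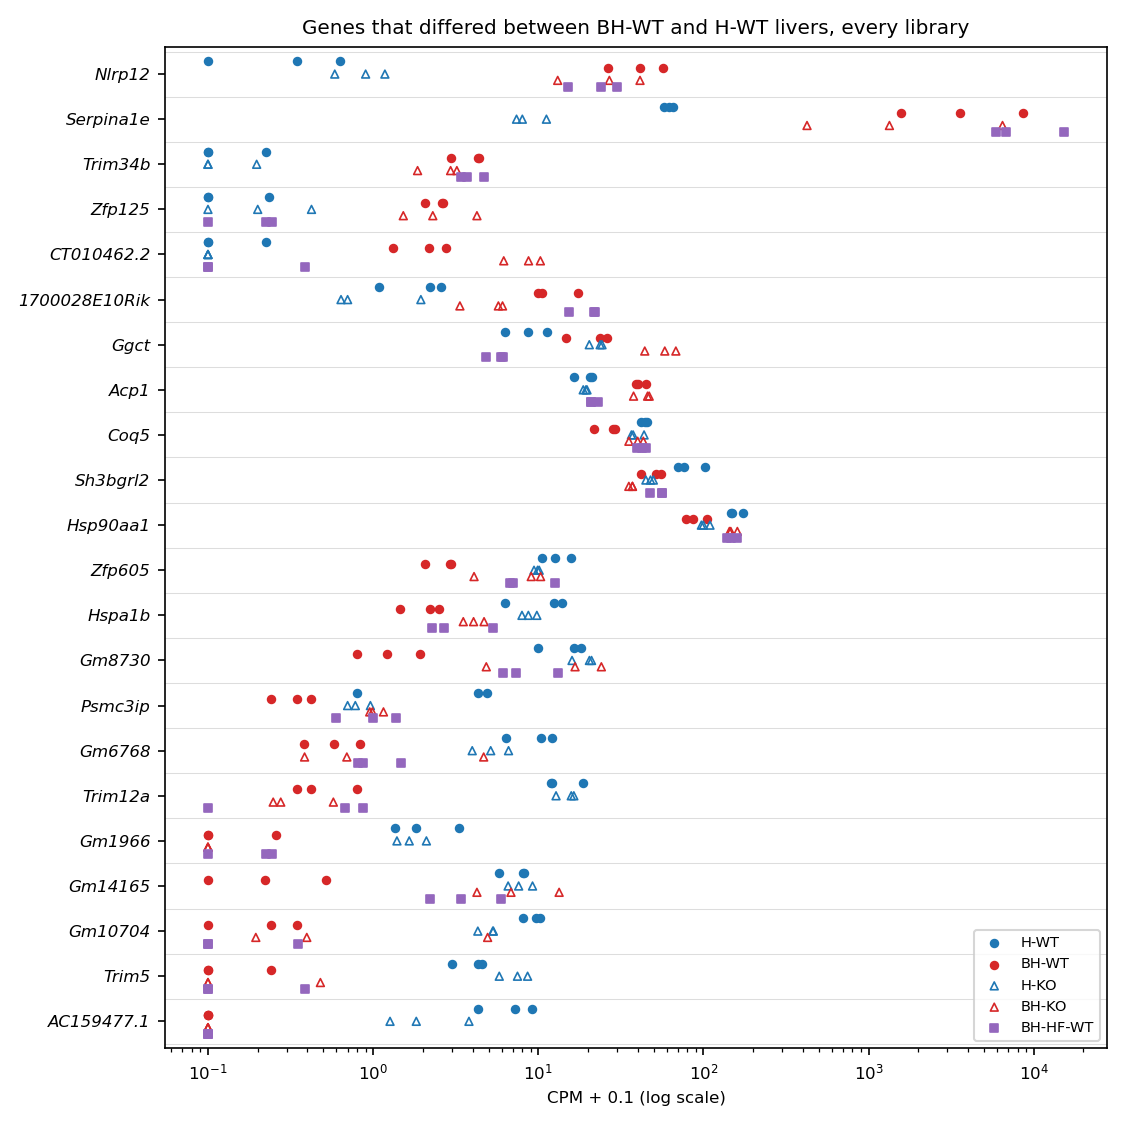
CPM plus 0.1 on a log axis for 22 of the 23 genes that passed, with 1 point per library in H-WT, BH-WT, H-KO, BH-KO and BH-HF-WT. The BH-WT and H-WT points do not overlap for any of the 22 genes, and for Acp1, Zfp125 and CT010462.2, as for some of the other genes, the BH-HF-WT points lie with H-WT.

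The smallest adjusted p belonged to 3 genes of chromosome 7. Nlrp12 (ENSMUSG00000078817, mm10 chr7:3218784-3249740), which encodes a NOD-like receptor of innate immunity, was at 0.531, 0.246 and 0 CPM in H-WT and at 56.7, 41.3 and 26.5 CPM in BH-WT. Over the 3 H-WT libraries there were 6 counts, and the ratio of the groups was 160 (95% counting interval 73.3 to 437) (adjusted p = 0.000543). The gene was thus near the detection limit in one line and clearly expressed in every library of the other. It lies 110 Mb from Arntl, at the other end of the chromosome.

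The other 2 belong to a cluster of TRIM genes, which encode ubiquitin ligases, several of them antiviral. Trim12a (ENSMUSG00000066258, chr7:104299894-104315466) was at 11.9, 11.8 and 18.6 CPM in H-WT and at 0.7, 0.245 and 0.319 CPM in BH-WT. It fell by 5.03 ± 0.54 (log2, SE; adjusted p = 0.000543). Trim34b (ENSMUSG00000090215, chr7:104329471-104336909) showed the opposite direction, with 0, 0.123 and 0 CPM in H-WT and 4.2, 4.28 and 2.87 CPM in BH-WT, a ratio of 87.7 (95% counting interval 15.3 to 3505, adjusted p = 0.000543). Trim5 (chr7:104263386-104288094), whose relatives in primates restrict retroviruses, was at 2.92, 4.44 and 4.19 CPM in H-WT and at 0.14, 0 and 0 CPM in BH-WT, a ratio of 83.3 in favour of H-WT (14.6 to 3327, adjusted p = 0.0170). Of the 50-base stretches of Trim34b, 56.8% also occur in Trim34a, which was at 3.45, 3.33 and 4.47 CPM in H-WT and at 2.38, 0.979 and 2.87 CPM in BH-WT (-0.87 ± 0.34, adjusted p = 0.471). The sum of Trim34a and Trim34b was 3.79 ± 0.591 CPM (SD, n = 3) in H-WT and 5.86 ± 0.669 CPM in BH-WT, a smaller difference than that of Trim34b alone, and how reads were assigned between them was not tested.

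Of 11 tested TRIM genes of this region, 1 rose, 2 fell and 8 did not pass, and 8 of the 11 had no overlap between the groups (14.7% of all tested genes). Trim6 was at 0.398, 0.739 and 0 CPM in H-WT and at 3.22, 1.71 and 2.55 CPM in BH-WT (2.62 ± 0.56, adjusted p = 0.0757). Trim30d was at 8.49, 5.17 and 7.69 CPM against 0.14, 2.57 and 1.75 CPM (-2.23 ± 0.66, adjusted p = 0.294), whereas Trim3 and Trim21 overlapped between the lines. Trim12c, which shares sequence with Trim12a and Trim5, was at 12.9, 14 and 19.6 CPM in H-WT and at 30.2, 28.5 and 30.6 CPM in BH-WT (0.94 ± 0.21, adjusted p = 0.109). The sum of Trim12a and Trim12c was 29.6 ± 7.42 CPM (SD, n = 3) in H-WT and 30.2 ± 1.27 CPM in BH-WT. In H-WT replicates 1 and 2 it was 24.8 and 25.9 CPM, below every BH-WT library, and in replicate 3 it was 38.2 CPM. In the KO libraries the sum was 29.6 ± 3.92 CPM in H-KO and 29.4 ± 6.36 CPM in BH-KO. The mean sums were thus level between the lines, while Trim12a fell and Trim12c, with the opposite sign, did not pass. Whether reads of one were assigned to the other was not tested.

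Trim12a, Trim34b and Trim5 lie 8.88 to 8.94 Mb before the start of Arntl. Within 10 Mb of Arntl on either side, 4 of 134 tested genes passed (2.99%, against 0.165% of all genes), the fourth being the pseudogene Gm1966 at 6.61 Mb, and 26.9% had non-overlapping libraries against 14.7% of all genes. Without H-WT replicate 3, 3 genes passed there, since Gm1966 was lost (adjusted p = 0.0563), and 7 passed in DESeq2's test with all libraries. Within 5 Mb none of 52 tested genes passed in edgeR's or DESeq2's test (7 at an unadjusted p under 0.05), and within 20 Mb the same 4 of 337 passed in edgeR's test and 10 in DESeq2's. Within 10 Mb of Hnf4a, whose allele is named in both lines, 0 of 171 passed in either test (16 at an unadjusted p under 0.05) and 12.9% had non-overlapping libraries. Within 10 Mb of Alb, also shared by the 2 lines, 0 of 92 passed in either test (16 at an unadjusted p under 0.05) and 28.3% had non-overlapping libraries. The surroundings of Arntl held a higher share of passing genes than the genome, and those of Alb a higher share of non-overlapping genes without one that passed. These shares are descriptions of neighbouring genes, which are not independent of each other.

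**Figure D2:**
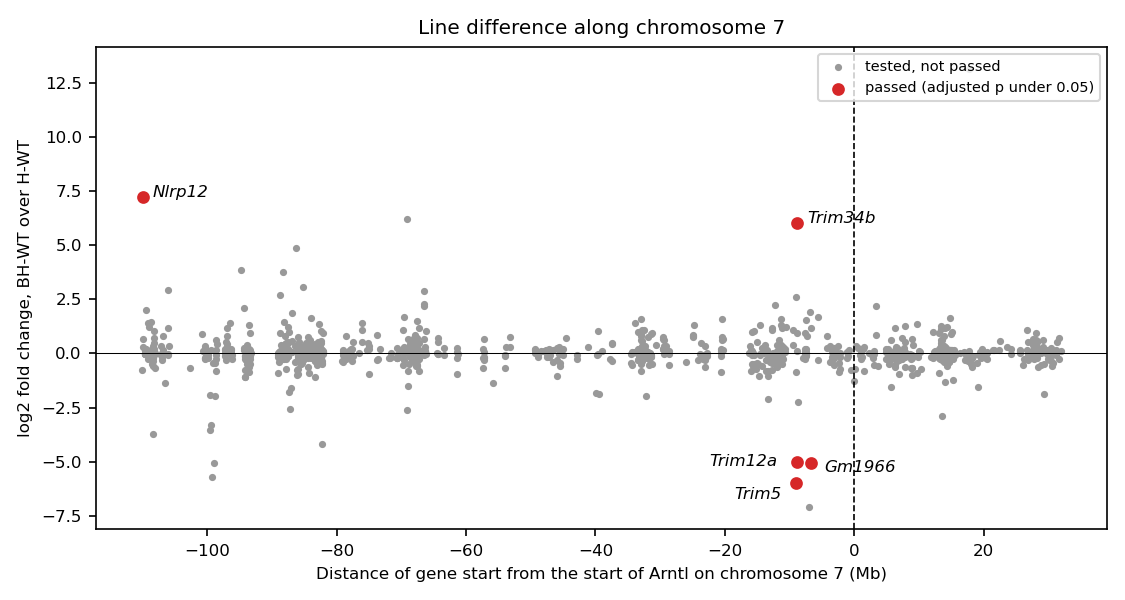
Log2 fold change of BH-WT over H-WT for every tested gene of chromosome 7 against the distance of its start from the start of Arntl in Mb (dashed line at 0). The 5 genes that passed are Nlrp12 at the far end and 4 genes between 6.61 and 8.94 Mb before Arntl.

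Chromosome 12 held 6 of the 23 genes, of 512 tested (1.17%), and 2 passed there without H-WT replicate 3. Acp1 (ENSMUSG00000044573, chr12:30893326-30911589), a low molecular weight protein tyrosine phosphatase, was at 16.3, 20.6 and 21 CPM in H-WT and at 45.1, 40.1 and 39.2 CPM in BH-WT. It rose by 1.10 ± 0.13 (log2, adjusted p = 0.000674). Zfp125, a zinc finger pseudogene (chr12:20877084-20921262), and the long non-coding RNA CT010462.2 (chr12:29139167-29199768) had 1 count each over the 3 H-WT libraries and 50 and 42 counts in BH-WT. Their ratios were 52.8 (95% counting interval 9.06 to 2128) and 44.4 (7.54 to 1794), and their adjusted p-values were 0.0392 and 0.0435, but 0.111 and 0.117 without H-WT replicate 3. These 3 genes lie within 10 Mb of each other, a stretch with 32 tested genes.

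Of the 23 genes, the one with the highest level in BH-WT was Serpina1e (ENSMUSG00000072849, chr12:103946931-103958975), 1 of 5 mouse genes for alpha-1-antitrypsin, the main serum inhibitor of elastase. It was at 65.0, 61.6 and 57.7 CPM in H-WT and at 8609, 1584 and 3558 CPM in BH-WT. The rise was 6.22 ± 0.93 (log2, adjusted p = 0.0140, and 0.0717 without H-WT replicate 3). H-WT libraries were tight and BH-WT libraries spread widely, yet the lowest BH-WT library lay far above all H-WT libraries. Serpina1e took 1.30% to 1.46% of the counts of Serpina1a to Serpina1e in H-WT and 25.1% to 44.9% in BH-WT. The other 4 genes summed to 4372 ± 220 CPM (SD, n = 3) in H-WT and 7471 ± 2937 CPM in BH-WT. Serpina1d, the closest of them by shared sequence, was at 566, 508 and 347 CPM against 3016, 1187 and 1573 CPM (2.02 ± 0.49, adjusted p = 0.160). Of the 50-base stretches of Serpina1e, 34.6% also occur in another gene, and how reads were assigned among the paralogs was not tested.

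Among the remaining protein-coding genes, Ggct, which acts in glutathione breakdown, was higher in BH-WT, at 14.6, 26.1 and 23.6 CPM against 11.1, 8.62 and 6.15 CPM (1.31 ± 0.23, adjusted p = 0.0359, and 0.0911 without H-WT replicate 3). The zinc finger gene Zfp605 fell, from 12.5, 15.8 and 10.5 CPM to 1.96, 2.81 and 2.87 CPM (-2.34 ± 0.36, adjusted p = 0.0140). Smaller falls were those of Sh3bgrl2 (-0.75 ± 0.13, adjusted p = 0.0359) and of Coq5, a methyltransferase of ubiquinone synthesis (-0.74 ± 0.14, adjusted p = 0.0481, and 0.0953 without H-WT replicate 3). Psmc3ip, which acts in meiotic recombination, was at 4.78, 4.19 and 0.699 CPM in H-WT and at or below 0.319 CPM in BH-WT, with 75 and 5 counts (ratio 14.2, 95% counting interval 5.82 to 45.0). Its level in H-WT replicate 3 was near that of BH-WT. It was at 0.601 to 0.863 CPM in H-KO, 0.854 to 1.06 CPM in BH-KO and 0.499 to 1.29 CPM in BH-HF-WT. H-WT replicates 1 and 2 thus lay above every library of these groups.

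Of the genes with clone or predicted-gene names, which were added to the text after their values were seen, 1700028E10Rik rose (2.73 ± 0.40, adjusted p = 0.00924). The non-coding RNA AC159477.1 was at 7.17, 4.19 and 9.09 CPM in H-WT and had no count in BH-WT, which is at least 48.3-fold lower, taking 3 counts over the group as the floor (adjusted p = 0.0373, and 0.0717 without H-WT replicate 3). The processed pseudogenes Gm14165, Gm8730, Gm6768 and Gm10704 were all lower in BH-WT, though without H-WT replicate 3 the adjusted p was 0.0717 for Gm8730 and Gm6768 and 0.0833 for Gm10704. Processed pseudogenes are copies of spliced transcripts, and reads of the parent gene can fall on them. Gm8730, a copy of the ribosomal gene Rplp0, was at 16.5, 9.86 and 18.2 CPM in H-WT and at 0.7, 1.83 and 1.12 CPM in BH-WT, while Rplp0 itself was at 231 ± 26.4 and 322 ± 35.9 CPM (0.48 ± 0.17, adjusted p = 0.425). Gm6768, of whose 50-base stretches 94.5% occur in another gene, mostly Ncoa4, was at 9.57 ± 2.97 and 0.498 ± 0.228 CPM, while Ncoa4 was at 29.9 ± 8.56 and 43.3 ± 1.90 CPM (0.53 ± 0.19, adjusted p = 0.449). In both pairs the parent gene had the opposite sign to its copy. Among the 23 genes, 10 shared at least 20% of their 50-base stretches with another gene, against 6.35% of all tested genes, and how reads were assigned between such copies was not tested.

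The KO libraries of the 2 lines share no sample with the WT libraries, so the same genes could be looked up there. BH-KO and H-KO also differ in which genes their lines were made to delete, and 16.4% of all tested genes passed between them (10.1% higher in BH-KO, 6.29% lower). Of the 23 genes, 13 passed in KO livers in the same direction, also without BH-KO replicate 1, the BH-KO library with the highest albumin share. They included Nlrp12, Trim12a, Trim34b, Trim5, Gm1966, Acp1, Zfp125, CT010462.2, Serpina1e, 1700028E10Rik, Ggct and AC159477.1. Nlrp12 was at 41.2, 26.9 and 13 CPM in BH-KO and at 0.801, 1.08 and 0.486 CPM in H-KO. Acp1 was at 37.7, 45.8 and 46.9 CPM against 18.6, 19.6 and 19.3 CPM, a difference of 1.18 ± 0.13 (adjusted p = 3.5e-05), close in size to that of the WT livers. Serpina1e was at 6480, 1339 and 424 CPM against 7.91, 11.1 and 7.29 CPM, so all 3 genes kept separate levels in the KO livers of the 2 lines.

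Of the other 10 genes, 9 did not pass in KO livers and Hsp90aa1 passed in the opposite direction. The line difference itself differed between KO and WT livers for 6 genes, Gm14165, Zfp605, Hsp90aa1, Gm8730, Psmc3ip and Coq5, in the same edgeR test of the interaction (6.09% of all tested genes passed it, 3.79% higher and 2.3% lower). Zfp605 was at 10.2, 3.99 and 8.97 CPM in BH-KO and 9.82, 10 and 9.33 CPM in H-KO, so that BH-WT alone of the 4 groups lay under 3 CPM. Coq5 was at 39.9, 35.3 and 43.2 CPM in BH-KO, inside the range of H-KO for 2 of the 3 libraries. The low level of Coq5 in BH-WT was thus not found in BH-KO. For Zfp605 it was not found in BH-KO replicates 1 and 3, while replicate 2, at 3.99 CPM, lay below every H-KO library. The genes were picked by the WT difference that enters this interaction, so their interactions are not independent of the choice.

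**Figure D3:**
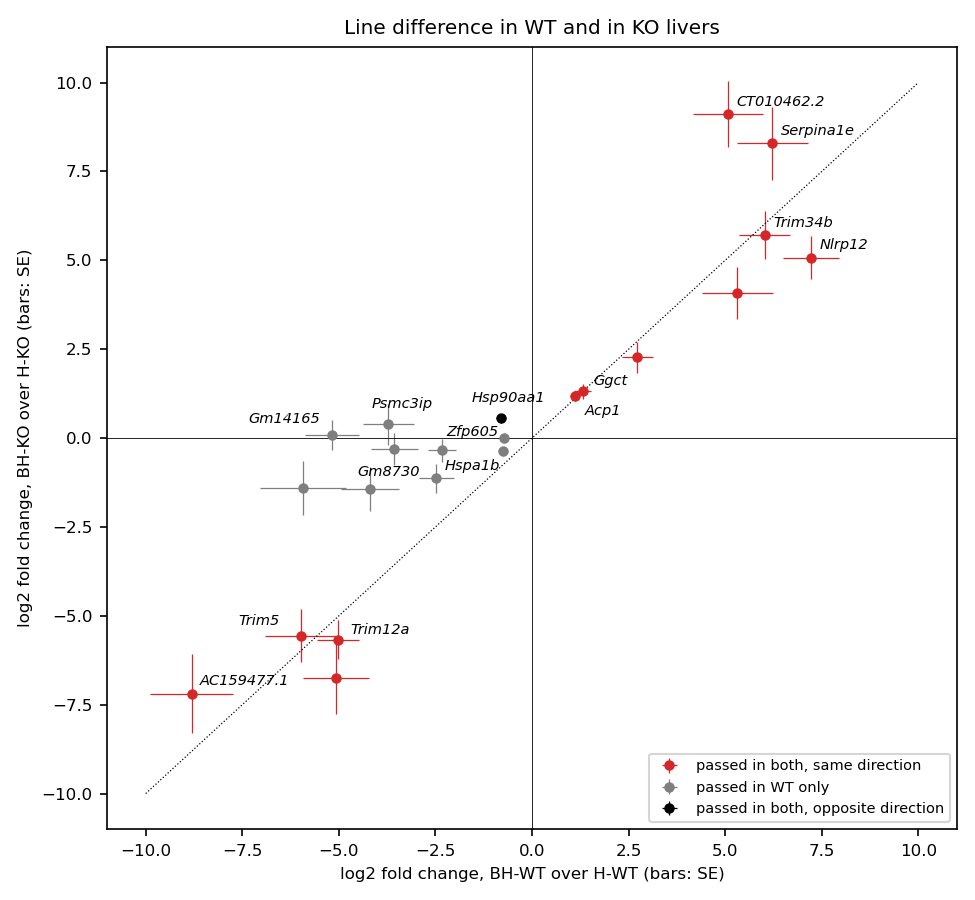
Log2 fold change of the BH line over the H line in KO livers (vertical) against that in WT livers (horizontal) for 22 of the 23 genes, with standard errors and a dotted line of equal change. The 12 genes in red passed in both with the same sign, and Hsp90aa1 passed with the opposite sign; fitted changes of genes with few counts in a group depend on the prior count.

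In BH-HF-WT, the older livers of the BH line, all 3 libraries lay on the BH-WT side of every H-WT library for 13 of the 23 genes, among them Nlrp12 at 15, 23.9 and 30 CPM, Trim12a at or below 0.768 CPM and Serpina1e at 15310, 5947 and 6822 CPM. The other 10 were Acp1, Zfp125, CT010462.2, Ggct, Zfp605, Coq5, Hsp90aa1, Gm14165, Gm8730 and Psmc3ip. Ggct was at 5.89, 5.98 and 4.72 CPM in BH-HF-WT, below every H-WT library, although it was higher in BH-WT. Acp1 was at 20.7, 22.9 and 20.7 CPM in BH-HF-WT, Zfp125 at or below 0.143 CPM and CT010462.2 at 0, 0 and 0.286 CPM, which are the levels of H-WT. For Acp1, Zfp125 and CT010462.2 the level of the BH line at 10 weeks, in WT and KO, was therefore not found in the BH-HF-WT livers, which differ in age and in diet. Age, diet and any difference in origin between these groups cannot be told apart.

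Arntl itself, the clock activator BMAL1, was at 2.39, 1.72 and 0.699 CPM in H-WT and at 0.42, 0.734 and 0.798 CPM in BH-WT (-1.29 ± 0.48, adjusted p = 0.459), all low at this time of day. The groups overlapped through H-WT replicate 3, and without it the difference was -1.64 ± 0.44 (adjusted p = 0.246). Hnf4a, a nuclear receptor of hepatocytes, was at 801, 887 and 580 CPM against 788, 888 and 770 CPM (0.11 ± 0.21, adjusted p = 0.926). Alb was at 77185 ± 5154 against 85057 ± 12231 CPM (0.14 ± 0.36, adjusted p = 0.952). None of the 3 genes named in the strain labels passed the test, with or without H-WT replicate 3 for Arntl.

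None of 25 core clock genes passed in edgeR's, DESeq2's or limma-voom's test (2 at an unadjusted p under 0.05), 13 had a positive sign, and their median log2 fold change was 0.01. Dbp, an output regulator of the clock, was at 102, 86.5 and 125 CPM in H-WT and at 170, 117 and 116 CPM in BH-WT. Per2, a repressor, was at 73.9, 66.2 and 73.0 CPM against 60.9, 46.0 and 69.9 CPM, and Nr1d1, which encodes REV-ERB alpha, at 81.5, 102 and 125 CPM against 129, 111 and 121 CPM. Libraries of the 2 sets of controls overlapped for all clock genes of the list but Csnk1e, a kinase of the PER proteins, which was at 9.29, 8.75 and 8.81 CPM against 8.26, 8.07 and 5.74 CPM. Of 36 hepatocyte genes that depend on HNF4A, none passed in the 3 tests (1 at an unadjusted p under 0.05), and the median was -0.04 (0.05 without BH-WT replicate 2).

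Among the lists of cellular pathways, that of heat shock proteins had members that passed. These chaperones fold proteins and are transcribed by HSF1, which binds inverted GAA repeats in promoters when unfolded protein accumulates. Promoters of the 3 members with the largest fitted falls among those with an entry are printed as examples. They run from 250 bases before to 30 after the start (RefSeq, GRCm38.p6), with each GAANNTTC or TTCNNGAA in capitals. They are on chr17:34959209-34959488 (minus strand), chr5:149636286-149636565 (minus, 1 of 2 starts) and chr9:18292017-18292296 (plus).
Hspa1b: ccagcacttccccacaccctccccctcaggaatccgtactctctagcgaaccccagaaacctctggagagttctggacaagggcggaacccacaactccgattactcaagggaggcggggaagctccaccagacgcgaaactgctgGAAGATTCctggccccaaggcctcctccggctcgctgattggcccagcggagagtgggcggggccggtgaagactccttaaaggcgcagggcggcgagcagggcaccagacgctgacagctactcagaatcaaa
Hsph1: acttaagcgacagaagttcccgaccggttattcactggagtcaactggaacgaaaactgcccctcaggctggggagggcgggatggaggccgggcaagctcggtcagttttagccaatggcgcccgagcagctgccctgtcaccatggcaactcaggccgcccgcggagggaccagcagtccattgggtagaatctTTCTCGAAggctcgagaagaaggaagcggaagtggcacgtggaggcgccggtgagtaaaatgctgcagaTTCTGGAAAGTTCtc
Chordc1: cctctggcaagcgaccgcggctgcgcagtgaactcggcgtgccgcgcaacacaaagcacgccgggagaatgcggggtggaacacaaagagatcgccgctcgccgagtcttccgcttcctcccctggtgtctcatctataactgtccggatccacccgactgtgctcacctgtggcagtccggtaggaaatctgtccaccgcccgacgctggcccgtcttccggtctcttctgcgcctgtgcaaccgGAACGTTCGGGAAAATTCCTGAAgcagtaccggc
The letters were searched on both strands in windows of 300 bases (250 before to 50 after the start). They occurred in at least 1 promoter of 10 of the 12 list members with an entry, and in none of Dnajb1 and Hspa4l. By the same count they occurred in 14.2% of 10145 tested genes with a promoter, and in 15.1% of all 32851 single promoters. The 12 members are not independent, since Hspd1 and Hspe1 share a stretch and Hspa1a is the twin of Hspa1b. The match is a description of the letters and not of binding.

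Hspa1b (ENSMUSG00000090877, chr17:34956436-34959238), an inducible HSP70, was at 13.8, 12.4 and 6.15 CPM in H-WT and at 2.10, 1.35 and 2.39 CPM in BH-WT. It fell by 2.48 ± 0.45 (log2, adjusted p = 0.0390). Hsp90aa1 (ENSMUSG00000021270, chr12:110690605-110702728), the inducible HSP90, was at 175, 147 and 148 CPM against 78.8, 86.1 and 105 CPM and fell by 0.80 ± 0.13 (adjusted p = 0.0178). In KO livers Hspa1b kept its sign without passing, at 4.60, 3.42 and 3.96 CPM in BH-KO against 8.61, 9.71 and 7.87 CPM in H-KO (-1.13 ± 0.41, adjusted p = 0.0685). Hsp90aa1 was higher there in the BH line, at 146, 144 and 161 CPM against 110, 99.8 and 97.2 CPM (0.56 ± 0.13, adjusted p = 0.00854). Hsp90aa1 in BH-WT was thus below the other groups shown in the plot of the genes that passed, apart from its overlap with H-KO.

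Of 15 tested heat shock genes, 2 fell and 13 did not pass (4 fell in DESeq2's test, with Hsph1 and Chordc1, and 1 in limma-voom), 14 had a negative sign, and the median log2 fold change was -0.40 against 0.00118 for all genes. Libraries did not overlap for 7 of the 15, all lower in BH-WT, against 7.09% of all genes in that direction. The 15 genes summed to 2606 to 2962 CPM in H-WT and 2250 to 2562 CPM in BH-WT. Their sum was 2076 to 2471 CPM in H-KO, 2586 to 3060 CPM in BH-KO and 2866 to 3376 CPM in BH-HF-WT. It was thus not lower in BH-KO than in H-KO, nor in BH-HF-WT than in H-WT. Hsph1, an HSP110 co-chaperone, was at 68.9, 63.8 and 55.5 CPM in H-WT and at 19.7, 24.8 and 40.0 CPM in BH-WT (-1.16 ± 0.28, adjusted p = 0.169). Chordc1, a partner of HSP90, was at 61.8, 56.4 and 50.5 CPM against 32.6, 30.9 and 44.0 CPM (-0.65 ± 0.16, adjusted p = 0.172). Dnajb1, an HSP40, was at 26.1, 25.4 and 20.6 CPM against 14.3, 14.2 and 18.8 CPM (-0.61 ± 0.17, adjusted p = 0.25). In these 3 genes every BH-WT library was below every H-WT library although the test was not passed. The constitutive members overlapped, with Hspa8 at 606, 750 and 648 CPM against 548, 645 and 682 CPM and Hsp90ab1 at 763, 766 and 951 CPM against 741, 738 and 791 CPM. Among BH-WT libraries replicate 3 was nearest to H-WT for Hsp90aa1, Hsph1, Chordc1, Dnajb1 and Dnajb4. Of Hspa1b, 62.3% of the 50-base stretches are shared with other genes, mainly its twin Hspa1a, which was not tested because of low counts.

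**Figure D4:**
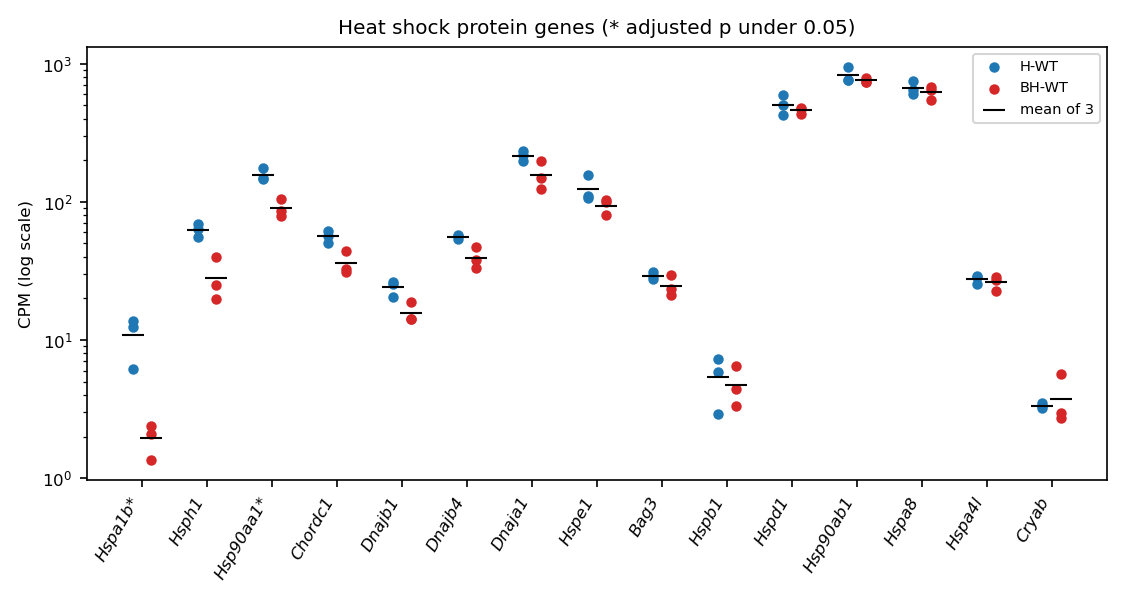
CPM on a log axis of the 15 tested heat shock protein genes in the 3 H-WT and 3 BH-WT libraries, with the mean of each group as a bar. Hspa1b and Hsp90aa1, marked with an asterisk, passed the test, and 7 of the genes have no overlap between the groups, all with BH-WT lower.

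In the BH-WT livers, not every sex-biased liver gene had the male pattern that the Y-linked and X-linked markers had. Of 31 tested female-biased genes none passed with all 6 libraries in edgeR's test (4 at an unadjusted p under 0.05, and Hao2, lower, in DESeq2's test), and the median log2 fold change was 0.07 (-0.20 without BH-WT replicate 2). H-WT replicate 3 had the highest level of many of them, which widened the spread of its group. Cux2, a transcription factor restricted to female liver, had 0.133 and 0.986 CPM in the first 2 H-WT libraries and 78.8 CPM in replicate 3, whereas all 3 BH-WT libraries, with the male pattern of Xist and Ddx3y, were at 55.2, 120 and 48 CPM. Trim24, a co-regulator that is higher in female liver, had 40.1 and 35.5 CPM in those 2 libraries, 106 CPM in the third, and 88.1, 103 and 87.1 CPM in BH-WT. For both genes BH-WT resembled the single library with the female pattern.

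Without H-WT replicate 3, Cux2 rose by 6.98 ± 1.03 (log2, adjusted p = 0.0192) and Trim24 by 1.30 ± 0.21 (adjusted p = 0.0230). In that comparison 27 of the 31 genes had a positive sign, with a median of 1.88 against 0.01 for all genes. Libraries did not overlap for 19 of the 31, higher in BH-WT, against 14.2% of all genes. Cyp2c40 was at 7.56 and 1.11 CPM in those 2 H-WT libraries and at 82.3, 145 and 65.6 CPM in BH-WT. Slc22a26, an organic anion transporter, was at 17.1 and 8.99 CPM against 160, 331 and 168 CPM, and Acot3, an acyl-CoA thioesterase, at 41.9 and 26.2 CPM against 194, 162 and 135 CPM. The pattern was not uniform. Hao2, a peroxisomal oxidase, was at 1.99, 3.08 and 34.0 CPM in H-WT and at 0.28, 0.245 and 0.479 CPM in BH-WT (-5.25 ± 1.23, adjusted p = 0.152), so this female-biased gene was lowest in BH-WT whichever H-WT library it was set against.

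Of 26 tested male-biased genes, Serpina1e alone passed, the median was 0.06, and it was 0.17 without BH-WT replicate 2 and -0.18 without H-WT replicate 3, when libraries did not overlap for 9 genes that were lower in BH-WT (34.6%, against 13.6% of all genes). Cyp4a12a, a fatty acid hydroxylase of male liver, was at 490 and 582 CPM in the H-WT replicates 1 and 2, at 33.3 CPM in replicate 3 and at 62.0, 4.65 and 27.9 CPM in BH-WT (-3.55 ± 1.26, adjusted p = 0.449). In contrast C6, a complement component higher in males, was at 158, 127 and 13.4 CPM in H-WT and at 111, 104 and 164 CPM in BH-WT. The BH-WT libraries lay below and above H-WT replicates 1 and 2, and all lay above replicate 3. The summed female-biased genes were at 1018, 909 and 5000 CPM in H-WT and at 2323, 4800 and 2200 CPM in BH-WT, and in BH-HF-WT they were at 204 to 414 CPM. The summed male-biased genes were at 10789, 10434 and 5268 CPM in H-WT and at 19537, 8270 and 16574 CPM in BH-WT, so that 2 of the 3 BH-WT libraries were above all H-WT libraries in that sum, which includes Serpina1e. Cux2 was at or below 0.572 CPM in BH-HF-WT and at 48.6, 67.5 and 91.1 CPM in H-KO. High Cux2 in libraries with the male pattern was therefore found in BH-WT and H-KO and not in the older BH-line controls. BH-WT replicate 2 had the highest female-biased sum of its group and the lowest summed major urinary proteins of the 6 libraries, 1160 CPM against 3912 to 9026 CPM in the other 5.

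**Figure D5:**
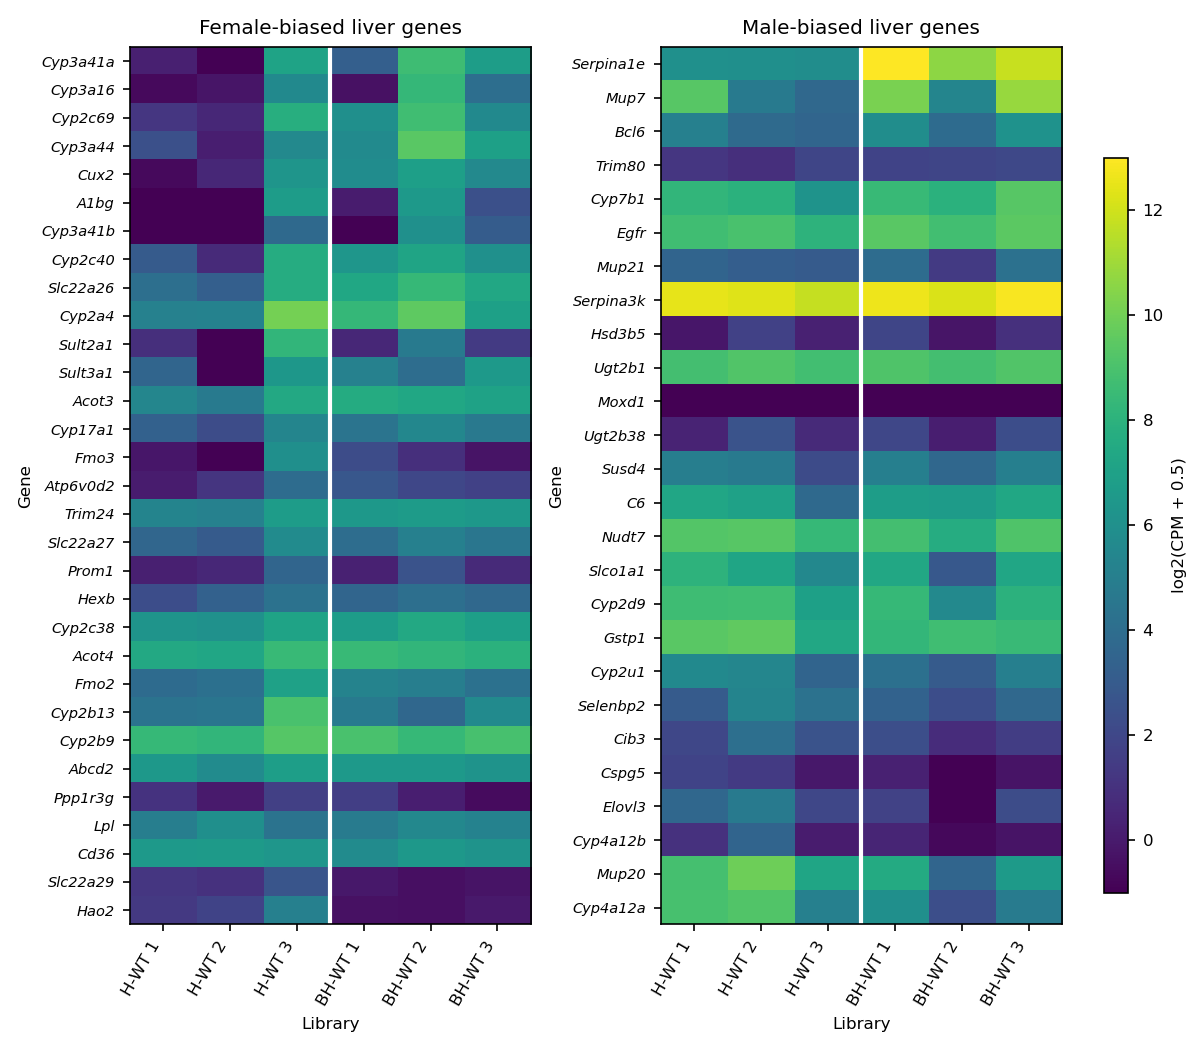
Log2(CPM + 0.5) of 31 female-biased (left) and 26 male-biased (right) liver genes in the 3 H-WT and 3 BH-WT libraries, colour scale at the right, ordered by BH-WT over H-WT replicates 1 and 2. At the top of the left panel are genes such as Cux2 that are low in H-WT replicates 1 and 2 and high in H-WT replicate 3 and in BH-WT.

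The 2 other genes that passed only without H-WT replicate 3 fell. Alas2, the erythroid enzyme of haem synthesis, was at 64.6, 87.1 and 18.4 CPM in H-WT and at 18.2, 20.6 and 18.2 CPM in BH-WT (-2 ± 0.31 without that library, adjusted p = 0.0192). Unc45a, a chaperone partner of HSP90, was at 25.4, 18.6 and 15.5 CPM against 11.1, 12.1 and 11 CPM (-0.94 ± 0.15, adjusted p = 0.0192). For Alas2 the library with the female pattern was at the level of BH-WT, whereas for Unc45a it was not. The 7 tested erythroid markers, Alas2 included, had 6 positive signs and a median of 0.53. The median was 0.52 without H-WT replicate 3, and -0.07 with 3 positive signs without BH-WT replicate 2. With all libraries Alas2 thus did not have the sign of most of its list, but without BH-WT replicate 2 most of the list was no longer positive.

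Acute phase genes, which hepatocytes transcribe in response to interleukin-6 and related signals, had no member that passed in edgeR's, DESeq2's or limma-voom's test (6 at an unadjusted p under 0.05). Of the 25 tested, 23 had a positive sign, the median was 0.85, and libraries did not overlap for 17, all higher in BH-WT, against 7.62% of all genes. Fgb, a chain of fibrinogen, was at 4236, 3412 and 3722 CPM in H-WT and at 7296, 6832 and 6368 CPM in BH-WT (0.85 ± 0.38, adjusted p = 0.516). Lcn2, an iron-binding protein of acute inflammation, was at 101, 5.30 and 7.97 CPM against 173, 325 and 222 CPM (2.65 ± 1.33, adjusted p = 0.564). H-WT replicate 1 was the highest of its group for both, and the list's summed level was 40291, 20596 and 22205 CPM in H-WT against 46618, 54684 and 51014 CPM in BH-WT. The sum was 29532 to 45220 CPM in BH-HF-WT, which overlapped H-WT. It was 33206 to 61028 CPM in BH-KO and 22081 to 40710 CPM in H-KO, which overlapped each other. Complement and coagulation genes had 34 of 38 positive signs, a median of 0.22 and no gene that passed in edgeR's test (3 at an unadjusted p under 0.05, and C4a, lower, in DESeq2's test), with C3 at 14913, 9626 and 10903 CPM against 21957, 25941 and 21436 CPM (0.97 ± 0.37, adjusted p = 0.463).

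Macrophage and Kupffer cell markers lay in the same direction with wide spread. All 20 had a positive sign and a median of 1.52, which was 1.11 without H-WT replicate 3 and 0.93 without BH-WT replicate 2, when 19 of the 20 were positive; none passed in edgeR's or DESeq2's test (7 at an unadjusted p under 0.05), and libraries did not overlap for 4, all higher in BH-WT (7.62% of all genes). Their summed level was 893, 576 and 344 CPM in H-WT and 545, 1992 and 1255 CPM in BH-WT, so BH-WT replicate 1 lay inside the H-WT range. In the other groups the sum was 331 to 603 CPM in BH-KO, 504 to 678 CPM in H-KO and 193 to 515 CPM in BH-HF-WT. A higher sum in the BH line was thus not found in those groups. Csf1r, the receptor for macrophage colony-stimulating factor, was at 55.2, 30.1 and 8.81 CPM against 27.3, 170 and 90.1 CPM. The 6 tested neutrophil markers were all positive and none passed in either test (0 at an unadjusted p under 0.05), at a summed 3.22 to 24.3 CPM against 14.4 to 64.1 CPM. Endothelial markers had 4 of 20 positive signs and a median of -0.39, which was -0.65 with 1 positive sign without BH-WT replicate 2. Hepatocyte markers had 6 of 11 positive signs and a median of 0.14 (0.08 without H-WT replicate 3). The part of such cells in the acute phase, heat shock and sex-biased values was not tested, and in bulk liver more cells of a type and more RNA per cell cannot be told apart.

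Among the lists of lipid, glucose, amino acid, bile acid and drug metabolism no gene passed in edgeR's or limma-voom's test, with 0 to 8 members of a list at an unadjusted p under 0.05. DESeq2's test passed Pnpla2 and Cyp2a22, both higher in BH-WT, and Gsta2 and Gstm4, both lower. Cholesterol synthesis genes had 20 of 25 positive signs and a median of 0.22 (0.45 without BH-WT replicate 2), but no member without overlap. Fat synthesis genes had 5 of 24 positive signs and a median of -0.22. Against the median, Thrsp, a lipogenic regulator, was at 272, 217 and 323 CPM against 478, 465 and 693 CPM (1.01 ± 0.36, adjusted p = 0.435). Urea cycle and amino acid genes had 6 of 32 positive signs and a median of -0.22, which was -0.02 with 15 positive signs without H-WT replicate 3 and -0.10 without BH-WT replicate 2. The genes of cytosolic ribosomal proteins were all 75 positive with a small median of 0.17 and none passed (14 at an unadjusted p under 0.05, and Rpl29 and Rpl34 in DESeq2's test), with Rpl34 at 34.9, 29.9 and 42.9 CPM against 55.6, 72.5 and 54.4 CPM (0.76 ± 0.18, adjusted p = 0.131). Libraries did not overlap for 17 of the 75, all higher in BH-WT (7.62% of all genes). Without H-WT replicate 3 the median was 0.33 and 68 of the 75 did not overlap (90.7%, against 14.2% of all genes), again with no gene that passed. With upper-quartile scaling 74 of the 75 were positive.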

How the data were processed

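The values used are the counts of reads for each gene that the authors deposited, whole and without scaling, in 1 table with a column for each of the 18 libraries. Reads were aligned with STAR 2.6 to mm10, per the submitters' processing notes. The sources used here do not give the counting tool, how it treated strand or ambiguous reads, the kit, or the read length. Groups were taken from the labels.

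Of 52636 gene IDs, 13958 remained after filtering with filterByExpr, set to a minimum count of 10 by group. The model, fitted in edgeR 4.0.16 (R 4.3.3) with TMM scaling, had a mean for each of 6 groups and left 12 residual degrees of freedom. Contrasts were tested two-sided by the robust quasi-likelihood F-test at 0.05, adjusted (Benjamini-Hochberg) over all tested genes. The spread was thus estimated over all 6 groups. The design text calls the 3 samples of a group biological replicates. CPM values are TMM-scaled, and log2 fold changes carry their SE. Where a group had at most 10 counts, the ratio of summed counts has an exact 95% interval for counting error only, and groups without counts were set to a floor of 3 counts over the group. The test was checked on simulated counts with 200 changed genes. Positions are from GENCODE M21 (mm10), and sharing of 50-base stretches between genes was counted on its transcripts.

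Lists were described by counts and medians, without a set test. The members, lists and comparisons were chosen with earlier results of these data known. Genes named are the 12 largest rises and falls that passed at 5 CPM or more, the genes of the strain labels, the core clock, passing genes near the targeted loci, and members of each described list. The remaining genes that passed, and further list members, were added after their values were seen. Some results, 1 of the genes that passed among them, are not reported here. As alternatives, scaling used upper-quartile factors or those of DESeq2, filtering was dropped or set to 1 CPM in 3 libraries, testing used limma-voom (limma 3.58.1) or DESeq2 1.42.0, the 2 groups were fitted alone, replicate numbers served as a block, and every library was left out in turn.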

Additional observations from a re-analysis of the deposited data

Results flagged for a closer look

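The line difference in KO livers differed from that in WT livers for 6 of the 23 genes that passed between BH-WT and H-WT. This was the interaction contrast (quasi-likelihood test of edgeR, Benjamini-Hochberg adjusted), which 6.09% of all tested genes passed. The 23 genes were picked by the WT difference that enters it, so these interactions are not independent of the choice. The difference of differences (KO minus WT, log2) was 5.26 for Gm14165 (adjusted p = 0.00281), 1.99 for Zfp605 (0.0248), 1.36 for Hsp90aa1 (0.000952), 3.25 for Gm8730 (0.0236), 4.11 for Psmc3ip (0.0155) and 0.75 for Coq5 (0.0348). All 6 were lower in BH-WT, and none passed as lower in the contrast of BH-KO against H-KO. In that contrast Zfp605 (-0.34) and Gm8730 (-0.31) had negative log2 fold changes that did not pass. Gm14165 and Gm8730 are copies related to Rplp0 and share 39.1% and 73.7% of their 50-base stretches with other genes. Gm14165 was at 7.96, 5.67 and 8.11 CPM in H-WT, at 0.42, 0.122 and 0 CPM in BH-WT and at 4.15, 6.74 and 13.3 CPM in BH-KO.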

How the results depend on the processing

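Against 23 genes (8 higher, 15 lower), the DESeq2 test passed 101 (49 and 52), limma-voom 12 (5 and 7), no filter 35 (13 higher) and the 2 groups fitted alone 18 (5 higher). Leaving out 1 library gave 7 to 18 genes, 4 to 6 higher and 1 to 12 lower, with 7 without BH-WT replicate 2, 8 without BH-WT replicate 1 or H-WT replicate 2, and 11 without BH-WT replicate 3. The replicate block gave 14 genes (8 lower). Deviations from the group means correlated at -0.17, 0.06 and -0.08 between same-numbered libraries of the 2 groups. Between libraries of different number they correlated at -0.14 to 0.20. With 3 libraries a group, these values cannot decide whether the numbers pair the samples. All 23 passed in the DESeq2 test and in the filter of 1 CPM, 21 with DESeq2 size factors, 20 with upper-quartile factors and 11 with the groups alone. Trim12a and Acp1 passed in all 15 alternatives, and Nlrp12 and Trim34b in 14. Of 342 values of the 23 genes, 203 kept their side of the threshold, 139 lost it and 0 reversed. In KO livers 2293 genes became 919 with the groups alone and 1190 to 2341 with a library left out, the lowest without H-KO replicate 2. The interaction passed 850 genes, 516 without a filter, 1394 in DESeq2, 490 with the groups alone and 347 to 1248 with a library left out. The cause was not tested. The comparison of the groups alone without H-WT replicate 3, added after the data were seen, gave 28 genes, 10 of them among the 23. At these depths, genes under about 0.4 CPM in a library cannot be told from 0.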

Other observations

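The genes below did not pass the test and were chosen after their values were seen, from a larger number just outside the threshold. Gata4, a transcription factor of liver endothelial and stellate cells, was at 9.69, 12.8 and 12 CPM in H-WT and at 5.04, 5.87 and 6.22 CPM in BH-WT (-1.01 ± 0.20, adjusted p = 0.0614 by the quasi-likelihood test of edgeR, Benjamini-Hochberg adjusted). Coa4, an assembly factor of cytochrome oxidase on chromosome 7, was at 4.78, 2.96 and 4.89 CPM against 8.82, 7.95 and 10.4 CPM (1.10 ± 0.22, adjusted p = 0.0614). Cyp2a22 was at 0, 0.246 and 0.979 CPM against 11.1, 20.1 and 4.79 CPM (adjusted p = 0.0655). The interferon-inducible GTPase gene Gvin1, near the TRIM genes, had no count in BH-WT, BH-KO or BH-HF-WT and was at 1.99, 3.45 and 0.699 CPM in H-WT, with 99.2% of its 50-base stretches shared with other genes.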
